A study of Homo sapiens with 6 samples.

Results

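The serine-arginine (SR) splicing factors are described here by 10 genes, SRSF1 to SRSF7, SRSF9, SRSF10 and SRSF11, taken as every array probe whose gene name in the array files is one of these symbols. They are 10 of 36328 gene names on the array and have 19 of its 50599 probes for cell RNA. The RNA came from MOLT-4, an established human line of T-cell acute lymphoblastic leukaemia, and was enriched by immunoprecipitation of the m3G (trimethylguanosine) and m7G (7-methylguanosine) caps. The 2 groups received an empty vector (mock) or NUDT16, which encodes a decapping enzyme that removes such caps, and both groups were otherwise labelled alike. Each group had 3 arrays, numbered 1 to 3, with 1 eluate per 1-colour Agilent array. No label says that the replicates were separate cultures, so p-values measure only the spread between these samples, which may be technical.

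SR proteins carry an RNA recognition motif and a tail rich in arginine-serine repeats. They bind exonic enhancers, help recruit the spliceosome to neighbouring splice sites, and are moved in and out of nuclear speckles by phosphorylation of the tail. Most SR genes also limit their own output: the protein promotes the inclusion of a premature-stop ("poison") exon or another splicing change in its own transcript, and nonsense-mediated decay then removes that RNA. The comparison asks how the capture of SR transcripts through their caps changes when NUDT16 is supplied. RNA from before the pull-down was not analysed here, so less RNA, fewer capped molecules and poorer recovery cannot be told apart, and neither can fewer expressing cells and less RNA per cell.

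Each probe is a 60-base oligonucleotide of the transcript's own strand, and several genes have probes far apart, so what a probe can see differs within a gene. The sequences shown, some in part, belong to probes compared within SRSF2, SRSF3, SRSF5, SRSF6 and SRSF10. Those of the SRSF7 and SRSF11 probes, also compared, are not printed. In SRSF6, the upstream probe A_33_P3238455 (chr20:42087885-42087944, hg19, plus strand) is listed in the array files for the non-coding transcript NR_034009 and for no RefSeq messenger RNA. The downstream probe A_33_P3220530 (chr20:42092182-42092241) is listed for both NM_006275 and NR_034009. Capitals mark the polyadenylation hexamer AATAAA.
SRSF6 A_33_P3238455, bases 1 to 30: cctatgaccctttggctgaccttaccggaa
SRSF6 A_33_P3220530, bases 31 to 60: ctttaaatctcAATAAAatacttactgagg

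For SRSF2, SRSF3 and SRSF10 the upstream probe is printed whole and the downstream probe by its last 30 bases. SRSF2 lies on the minus strand (chr17:74732232-74732291 upstream, chr17:74730601-74730660 downstream) and SRSF3 on the plus strand (chr6:36564681-36564740 and chr6:36570424-36570483). The 2 SRSF10 probes are placed by the array files on the unlocalized chromosome 1 contig chr1_gl000191_random, minus strand, at 41684 to 41743 and 36374 to 36433.
SRSF2 A_33_P3412945: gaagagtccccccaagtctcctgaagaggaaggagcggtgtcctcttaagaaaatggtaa
SRSF2 A_23_P77776, bases 31 to 60: cagttgagtaatgctggttagctgttaagg
SRSF3 A_33_P3232828: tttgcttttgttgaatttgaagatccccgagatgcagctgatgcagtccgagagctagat
SRSF3 A_23_P413761, bases 31 to 60: gagccgaactttgagttactgtgcaagatt
SRSF10 A_33_P3303215: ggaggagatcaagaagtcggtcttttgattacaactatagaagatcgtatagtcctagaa
SRSF10 A_32_P45493, bases 31 to 60: tcctaactgatttagtatgttctgtaattg

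Both SRSF5 probes (chr14:70238119-70238178 and chr14:70238133-70238192, plus strand) share 46 bases, given in capitals, and are not independent measurements.
SRSF5 A_33_P3366146: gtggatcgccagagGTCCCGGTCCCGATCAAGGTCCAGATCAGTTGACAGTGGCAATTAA
SRSF5 A_23_P377819: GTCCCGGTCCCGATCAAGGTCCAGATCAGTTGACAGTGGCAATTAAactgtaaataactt

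A stop triplet (TAA, TAG or TGA) occurs in every forward frame in 6 of the 19 probes, which therefore cannot lie wholly within a coding stretch. These include the downstream probes of SRSF2, SRSF3 and SRSF10. A frame without a stop was found in 68.4% of the SRSF probes and in 83.3% of the 17765 probes tested. The hexamer AATAAA, searched on the probe's strand, was present in 1 SRSF probe and in 7.54% of tested probes (10.9% when both strands were searched). GC content had the same median, 43.3%, in the SRSF probes and in all tested probes.

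Signals are given as log2 intensity minus that array's 75th percentile, and a difference is NUDT16 minus mock on that scale. A probe was tested if it lay well above local background on all 3 arrays of at least 1 group. All 19 probes passed through the mock arrays, where each was detected 3 times. On NUDT16 arrays 16 were detected 3 times, while SRSF1 A_24_P921933, SRSF7 A_24_P222911 and SRSF10 A_23_P352291 were detected on replicates 1 and 3 only. The array that missed them, NUDT16 replicate 2, had 14.6% of its spots well above background, against 39.3% to 52.0% on the other 5 arrays, so its 75th percentile was itself a background value. Of 16 T-lineage genes, 12 were detected on every array (among them CD3E, LCK and PTCRA), whereas MS4A1 and PAX5 of B cells and ITGAM, CSF1R and MPO of myeloid cells were detected on none. CD79A, listed for B cells, and KRT8, listed for epithelium, were detected on all 6 arrays.

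**Figure D1:**
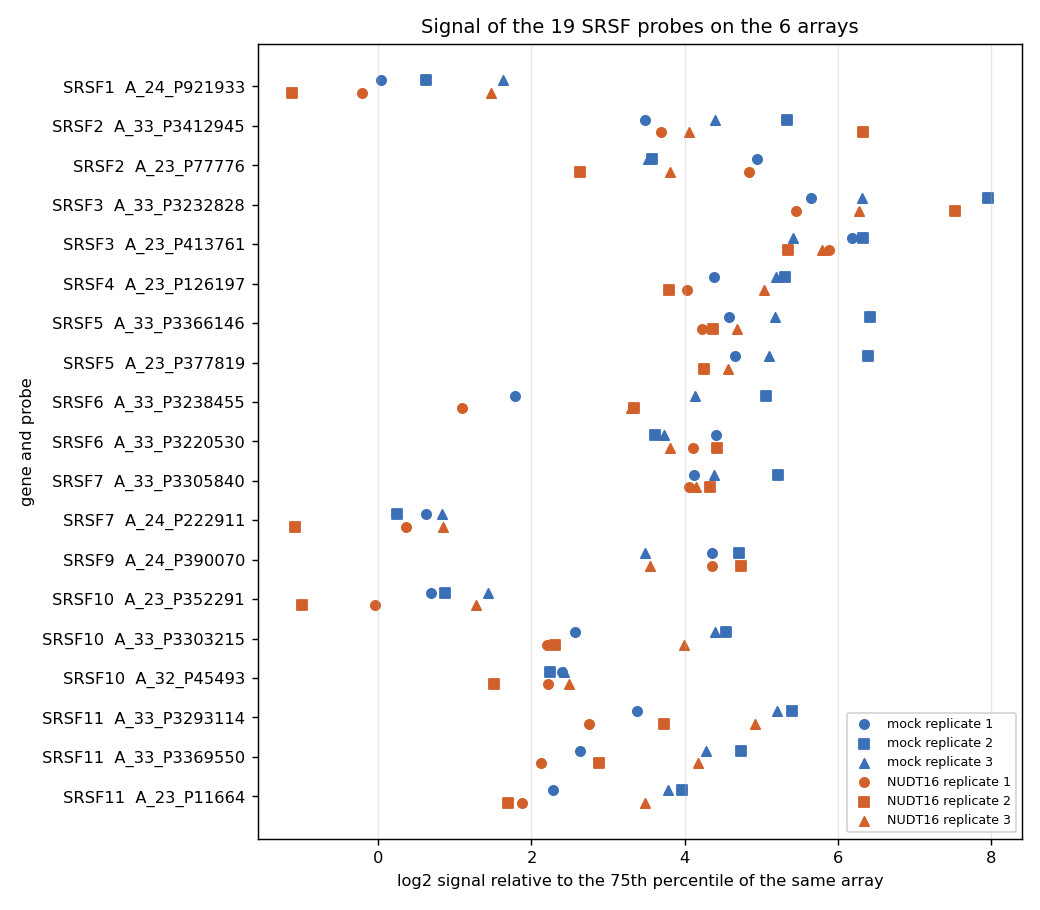
Log2 signal of each of the 19 SRSF probes minus that array's 75th percentile (horizontal axis), with 1 point per array. Blue points are mock and orange points NUDT16, and circles, squares and triangles are replicates 1, 2 and 3. Levels of different probes are not comparable. For most probes the points of replicates 1 and 3 lie close to their same-numbered partner of the other group, and the points of replicate 2 lie further apart.

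No SR gene was called as different between the groups. With limma and Benjamini-Hochberg adjustment over all 17765 probes, 0 of 19 SRSF probes were called at the 0.05 threshold, against 1 probe (0.00563%) among all tested, and every SRSF probe had an adjusted p of 0.9996. At an unadjusted p under 0.05 there were 0 SRSF probes and 15 probes in all (0.0844%). This fit leaves out the pairing of same-numbered arrays. With the pair as a block, 1426 of the 17765 probes had an unadjusted limma p under 0.05. The adjusted p of 0.9996 is therefore no evidence that the groups were alike. The direction was mostly downward: 16 of 19 SRSF probes had a difference below 0, compared with 51.4% of all tested probes. Their median difference was -0.67 and their range -1.09 to 0.29, while the median over all tested probes was -0.02. The SRSF probes also had higher signals. Their array medians ran from 3.48 (mock 1) to 4.73 (mock 2), against 0.46 (NUDT16 2) to 0.79 (NUDT16 1) over all tested probes. The part of signal level in the differences was not tested. Restricted to probes detected on all 6 arrays, 13 of 16 SRSF probes were lower (median -0.54), against 36.6% of 6582 probes (median 0.24). Read by the brightest such probe of each gene, 6 of 9 SR genes were lower (median -0.40), against 35.4% of 5701 genes (median 0.26). This restriction requires detection on NUDT16 replicate 2, which had few detected spots, and so favours probes high on that array. Among all tested probes the share lower fell from 51.4% to 36.6% under it, so the filter itself moves the comparison. A difference of at least 2-fold downward was reached by 3 SRSF probes, in SRSF5, SRSF6 and SRSF10, and by 5.11% of all tested probes. With normexp background correction, a median shift or no scaling all 19 SRSF probes were lower, where 60.4%, 93.9% and 98.7% of all tested probes were. None of these shares was tested, since the genes were chosen with earlier results known, and several probes share a gene.

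Arrays of the same number shared a slide and varied together, so the differences were also read within the pairs. The median over the SRSF probes was -0.30 in pair 1, -1.50 in pair 2 and -0.16 in pair 3, where all tested probes had medians of 0.03, -0.09 and -0.02. The largest drop thus lay in the pair that contains NUDT16 replicate 2, the array with few detected spots, and its size depended on the scaling. It was -1.01 with the authors' deposited table, -1.32 with quantile normalization and -4.92 without scaling, where all tested probes had -0.51, -0.61 and -3.50. Without NUDT16 replicate 2 the median over the SRSF probes was -0.48, with 15 of 19 probes lower, against -0.07 over all tested probes. In pairs 1 and 3 alone, fitted with the pair as a block, the SRSF median was -0.20, again with 16 of 19 probes lower, against 50.8% of all tested probes and a median of -0.01. The filter on all 6 arrays favours probes high on NUDT16 replicate 2. Among the probes it keeps, 10 of 16 SRSF probes were lower in each of the 3 pairs, compared with 15.0% of 6582. Over all tested probes 12 of 19 were, compared with 23.1%, a count that includes SRSF1 A_24_P921933 and SRSF10 A_23_P352291, which passed the filter through the mock arrays only, and the same 12 were those lower in both pair 1 and pair 3 (33.4% of all tested probes). These were the probes of SRSF1, SRSF4, SRSF5 and SRSF11, the upstream probes of SRSF3, SRSF6 and SRSF7, and A_23_P352291 and A_33_P3303215 of SRSF10.

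With the pair as a block over all 6 arrays, limma again called 0 of 19 SRSF probes and 1 of all tested (0.00563%). Their adjusted p values then ranged from 0.480 to 0.957. At an unadjusted p under 0.05 this fit had 2 SRSF probes, both lower, against 4.50% of all tested probes. They were SRSF6 A_33_P3238455 and SRSF5 A_23_P377819. On pairs 1 and 3 alone it called 0 SRSF probes and 2.13% of all tested probes as lower, with the same standard error of 0.26 for every probe. The lowest adjusted p of an SRSF probe in that fit was 0.0715, again for SRSF6 A_33_P3238455. With 1 standard error for all probes, the p-values of that fit follow the size of the difference and not each probe's own spread.

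**Figure D2:**
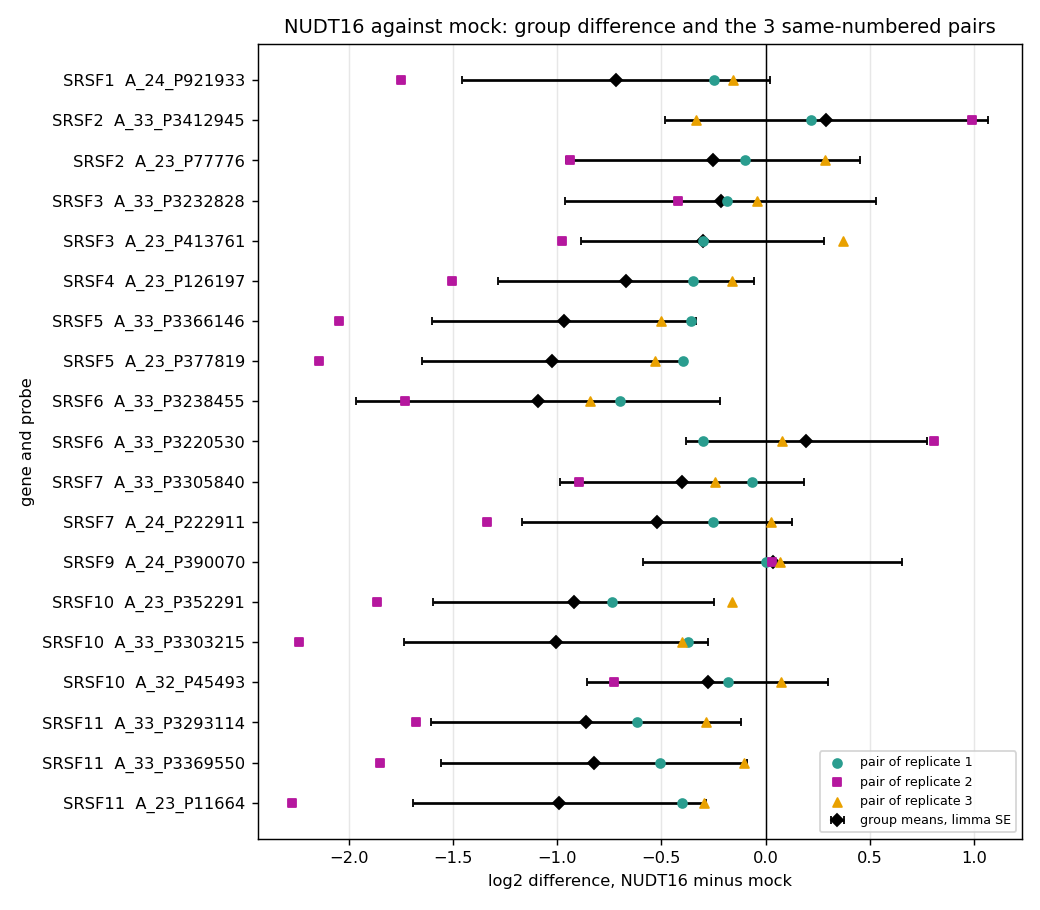
Log2 difference, NUDT16 minus mock, for each of the 19 SRSF probes. Black diamonds with bars are the difference of group means and its standard error in limma, and coloured points are the differences of the same-numbered pairs 1 (circle), 2 (square) and 3 (triangle). Pair 2 gave the lowest difference for most probes, whereas SRSF9 lay between 0.00083 and 0.069 in all 3 pairs.

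SRSF5 and SRSF11 had differences of at least 0.82 in size, and below 0, at every probe. SRSF5 read 4.58, 6.42 and 5.19 on mock arrays 1, 2 and 3 by probe A_33_P3366146, and 4.22, 4.37 and 4.68 on the NUDT16 arrays. Its overlapping probe A_23_P377819 read 4.65, 6.39 and 5.10 in mock and 4.25, 4.25 and 4.56 in NUDT16. The groups overlapped for the first of these by a narrow margin and did not overlap for the second, which was the only such case among the 19 probes, where 1.06% of all tested probes had a NUDT16 group wholly below mock. The differences were -0.97 (SE 0.63) and -1.02 (SE 0.63), with exact two-sided permutation p values of 0.2 and 0.1. The smallest p that 3 arrays against 3 allow is 0.1. Without mock replicate 2 the differences were -0.46 and -0.52, and without mock replicate 1 they were -1.37 and -1.39.

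SRSF11, an SR protein that interacts with the U2AF splice-site complex, has 3 probes within 1 kilobase on chromosome 1 (plus strand). The probe A_33_P3293114 (chr1:70715651-70715710) read 3.37, 5.41 and 5.21 in mock and 2.75, 3.73 and 4.92 in NUDT16. A_33_P3369550 (chr1:70716305-70716364) read 2.63, 4.73 and 4.28 in mock and 2.12, 2.88 and 4.18 in NUDT16. A_23_P11664 (chr1:70716494-70716553) read 2.28, 3.97 and 3.78 in mock and 1.87, 1.69 and 3.49 in NUDT16. All 3 were highest on mock replicates 2 and 3, were lower in every pair, and had overlapping groups. Their differences were -0.86 (SE 0.74), -0.82 (SE 0.73) and -0.99 (SE 0.70). With 1 array left out they ranged from -1.51 (without mock replicate 1) to -0.34 (without NUDT16 replicate 1), from -1.45 to -0.35 (the same arrays) and from -1.56 (without NUDT16 replicate 3) to -0.66 (without NUDT16 replicate 2).

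By the difference between the groups, SRSF6 was the gene whose probes parted most. The upstream probe, specific to the non-coding transcript, read 1.79, 5.07 and 4.14 in mock and 1.09, 3.34 and 3.30 in NUDT16, with a difference of -1.09 (SE 0.87) and -0.70, -1.73 and -0.84 by pair. That difference was -2.03 without mock replicate 1, -0.39 without mock replicate 2 and -0.35 without NUDT16 replicate 1. The downstream probe, common to both transcripts, read 4.42, 3.61 and 3.73 in mock and 4.11, 4.42 and 3.81 in NUDT16, with a difference of 0.19 (SE 0.58) and no shared direction by pair. Both arrays of replicate 1 stood far below the rest for the upstream probe and not for the downstream one.

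SRSF10, which represses splicing when its tail is dephosphorylated, also had probes that differed among themselves. The upstream contig probe A_33_P3303215 read 2.57, 4.54 and 4.39 in mock and 2.20, 2.30 and 3.99 in NUDT16 (difference -1.01, SE 0.73). The downstream contig probe A_32_P45493 read 2.40, 2.24 and 2.42 in mock and 2.22, 1.51 and 2.50 in NUDT16 (difference -0.28, SE 0.58). The remaining probe, A_23_P352291, is placed on chromosome 1 itself (chr1:24296247-24296306, minus strand) and is listed for NM_054016. It read 0.69, 0.87 and 1.43 in mock and -0.05, -1.0 and 1.27 in NUDT16, where replicate 2 was not well above background (difference -0.92, SE 0.67). The groups overlapped for each of the 3 probes. With 1 array left out the difference of A_33_P3303215 ranged from -1.64 (without mock replicate 1) to -0.65 (without mock replicate 2), and that of A_23_P352291 from -1.52 (without NUDT16 replicate 3) to -0.39 (without NUDT16 replicate 2).

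SRSF1 and SRSF4 have 1 probe each. SRSF1, the founding member of the family and a regulator of 5′ splice-site choice, read 0.03, 0.63 and 1.62 in mock and -0.22, -1.12 and 1.47 in NUDT16 (chr17:56078390-56078449, minus strand). Its difference of -0.72 (SE 0.74) was -0.14 without NUDT16 replicate 2, on which it was not detected, -0.29 without mock replicate 3 and -1.43 without NUDT16 replicate 3. SRSF4, a long-tailed SR protein, read 4.38, 5.31 and 5.20 in mock and 4.03, 3.80 and 5.04 in NUDT16 (chr1:29474499-29474558, minus strand). The difference was -0.67 (SE 0.61), lower in 3 of 3 pairs, with overlapping groups (exact two-sided permutation p = 0.2), and ranged from -1.04 (without NUDT16 replicate 3) to -0.43 (without NUDT16 replicate 2) with 1 array left out.

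SRSF7, which differs from its relatives by a zinc knuckle, had differences of -0.40 (SE 0.59) at the upstream probe A_33_P3305840 (chr2:38976675-38976734, minus strand) and -0.52 (SE 0.65) at the downstream probe A_24_P222911 (chr2:38971218-38971277). The upstream probe read 4.12, 5.22 and 4.39 in mock and 4.06, 4.33 and 4.14 in NUDT16. The downstream probe read 0.62, 0.25 and 0.83 in mock and 0.37, -1.09 and 0.85 in NUDT16, replicate 2 being undetected, and without that array its difference was 0.04. The upstream difference was -0.08 without mock replicate 2. In both probes the pairs of replicates 1 and 3 differed by less than 0.3.

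SRSF2, SRSF3 and SRSF9 had differences of at most 0.30 in size at every probe. SRSF2, a component used to mark nuclear speckles, read 3.48, 5.34 and 4.39 in mock and 3.70, 6.33 and 4.06 in NUDT16 upstream (difference 0.29, SE 0.77). Downstream it read 4.95, 3.57 and 3.52 in mock and 4.85, 2.63 and 3.80 in NUDT16 (difference -0.25, SE 0.71). On NUDT16 replicate 2 the upstream probe was thus at its highest and the downstream probe at its lowest.

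SRSF3, a compact SR protein that also acts in RNA export and in the choice of polyadenylation site, read 5.64, 7.96 and 6.32 in mock and 5.46, 7.53 and 6.28 in NUDT16 upstream, with a difference of -0.22 (SE 0.75). Its downstream probe read 6.18, 6.32 and 5.42 in mock and 5.88, 5.35 and 5.79 in NUDT16 (difference -0.30, SE 0.58). SRSF9, a relative of SRSF1 with a short tail, read 4.36, 4.71 and 3.48 in mock and 4.36, 4.73 and 3.55 in NUDT16 (chr12:120903500-120903559, minus strand). Its difference was 0.03 (SE 0.62), and each NUDT16 array lay within 0.07 of its mock partner. Without scaling it was -1.05, where the median over all probes was -1.10.

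A pair of probes of 1 gene on the same array gives a ratio that needs no scaling between arrays; its level depends on the probes, and what can be read is how it changes from array to array. In SRSF2 and SRSF3 the log2 ratio of the upstream to the downstream probe varied more with the replicate number than with the group. For SRSF2 it was -1.47, 1.77 and 0.87 on mock arrays 1, 2 and 3 and -1.15, 3.70 and 0.25 on NUDT16 arrays. For SRSF3 it was -0.54, 1.63 and 0.90 in mock and -0.42, 2.19 and 0.49 in NUDT16. In both genes the ratio was lower on both arrays of replicate 1 than on any of the other 4 arrays.

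The same order held for SRSF6, with -2.63, 1.46 and 0.41 in mock and -3.02, -1.08 and -0.51 in NUDT16. SRSF10 had ratios of 0.17, 2.31 and 1.97 in mock and -0.02, 0.79 and 1.49 in NUDT16. SRSF11, whose probes lie 843 bases apart, had the narrowest span, with 1.10, 1.44 and 1.43 in mock and 0.88, 2.03 and 1.43 in NUDT16. The lowest ratio fell on an array of replicate 1 and the highest on an array of replicate 2 in all 5 of these genes. SRSF7 was an exception: its ratio was 3.50, 4.98 and 3.56 in mock and 3.69, 5.42 and 3.29 in NUDT16, lowest on NUDT16 replicate 3, and its downstream probe was undetected on NUDT16 replicate 2.

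**Figure D3:**
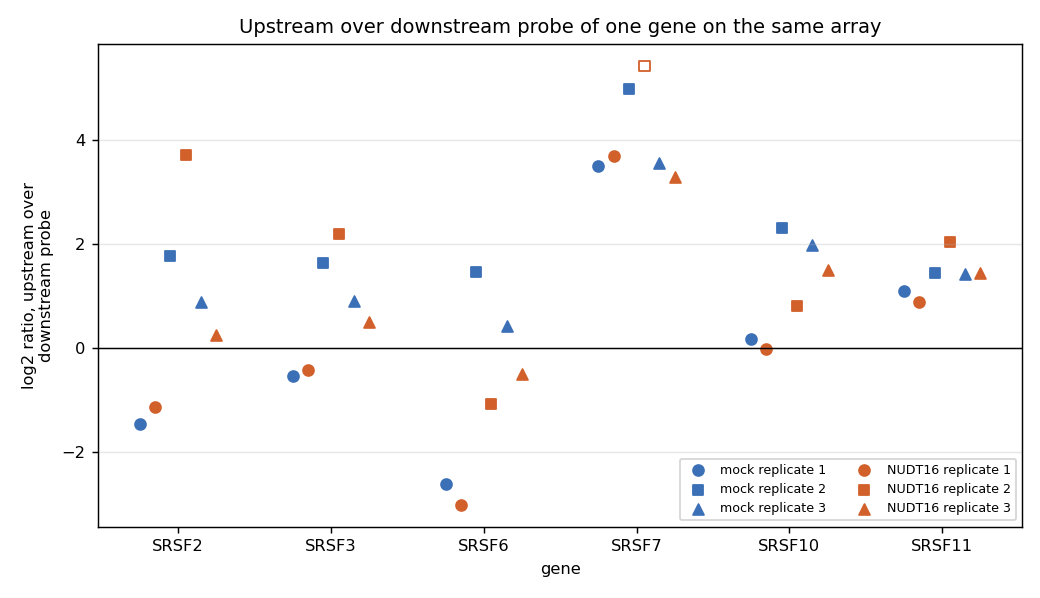
Log2 ratio of the upstream to the downstream probe of the same gene on the same array (vertical axis) for 6 SR genes. Blue is mock and orange NUDT16, and circles, squares and triangles are replicates 1, 2 and 3. The open square marks the SRSF7 ratio whose downstream probe was not well above background. Ratios of replicate 1 are the lowest for every gene but SRSF7, in both groups.

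The pattern was not limited to SR genes. Among 514 other genes with a pair of detected probes at least 300 bases and at most 100000 bases apart on 1 strand, the lowest ratio fell on an array of replicate 1 in 53.5% and the highest on one of replicate 2 in 64.0%. Expressed as a deviation from the gene's mean, their median ratio was -0.29, 0.22 and 0.11 on mock arrays 1, 2 and 3 and -0.33, 0.15 and 0.0011 on NUDT16 arrays. For the 5 SR genes those medians were -1.25, 1.11 and 0.21 in mock and -1.14, 0.65 and 0.049 in NUDT16. The difference between the SR genes and the others was not tested. The upstream probe had a GC content equal to or above that of the downstream probe in all 5 genes (50% and 43.3% in SRSF2, 45.0% and 41.7% in SRSF3, 53.3% and 35.0% in SRSF6, 38.3% and 35.0% in SRSF10, 45.0% and 45.0% in SRSF11). SRSF7, whose ratio was an exception, also had the higher GC content upstream (45.0% against 35.0% downstream). The part of GC content in the pattern was not tested.

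Between the groups, no ratio could be called, since the smallest exact permutation p of 3 arrays against 3 is 0.1, above the 0.05 threshold. The upstream-to-downstream ratio of SRSF6 averaged -0.25 ± 2.12 (SD, n = 3) on the mock arrays and -1.54 ± 1.32 (SD, n = 3) on the NUDT16 arrays. It was lower in 3 of 3 pairs, with differences of -0.40, -2.54 and -0.92 (exact two-sided permutation p = 0.4 between the groups, and 0.9 adjusted over the 9 probe ratios computed). For SRSF10 it averaged 1.48 ± 1.15 (SD, n = 3) on the mock arrays and 0.75 ± 0.76 (SD, n = 3) on the NUDT16 arrays, with differences of -0.19, -1.51 and -0.48 in the pairs (exact two-sided permutation p = 0.4, adjusted 0.9). With signs permuted within the pairs, the exact two-sided p of both ratios was 0.25. This is the smallest that 3 pairs allow, so that design could not reach the threshold either. In SRSF2, SRSF3 and SRSF7 the ratio was higher in pairs 1 and 2 and lower in pair 3. In SRSF11 it was -0.22, 0.59 and 0.0088 by pair.

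Genes that act on SR proteins or resemble them were read from lists written with earlier results known, by the brightest tested probe of each gene. Of 10 kinases and related enzymes that phosphorylate the tail, 9 were tested: 6 were lower and 3 higher, with a median of -0.58 and 0 called. PRPF4B, a kinase of spliceosome assembly, had the smallest p, at 3.40 ± 1.96 (SD, n = 3) on the mock arrays against 1.97 ± 1.52 (SD, n = 3) with NUDT16 (difference -1.43, SE 0.96, limma adjusted p 0.9996). Of both importins on the list 0 were called: TNPO3, the importer of phosphorylated SR proteins, had a difference of -0.71 (SE 0.61) and TNPO1 one of -0.71, where 51.4% of all tested probes lay below 0. Among 25 SR-related and TRA2 proteins 19 were lower and 6 higher, with a median of -0.43, and 0 were called. ZRSR2, a factor for the minor spliceosome, had a difference of -1.18 (SE 0.65) there, and was detected on 5 arrays.

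Of the relatives outside the 10 genes, SRSF8 had a difference of -0.19 (SE 0.64) and the single probe of SRSF12 was detected on 0 of 6 arrays. Nonsense-mediated decay factors, which clear the poison-exon transcripts, had 5 lower and 3 higher of 8 tested, with a median of -0.45 and 0 called. UPF3A had the smallest p among them (difference -1.41, SE 0.84, limma adjusted p 0.9996). Several of these genes passed the filter through 1 group only. A restriction to detection on all 6 arrays, in turn, favours genes high on NUDT16 replicate 2. Restricted to genes detected on all 6 arrays, 4 of 5 kinases (median -0.58), 8 of 13 SR-related proteins (median -0.15) and 3 of 5 decay factors (median -0.83) lay below 0, against 35.4% of 5701 genes read by their brightest such probe (median 0.26). TNPO3 was the only importin detected on all of them. As in the SR genes, the lowest medians were those of pair 2, with -1.37, -1.29, -0.81 and -0.75 for kinases, importins, SR-related proteins and decay factors.

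Over the 6 arrays, the 9 SR genes detected throughout were each centred on their own mean. The mean course of these genes was -0.43, 0.86 and 0.17 on mock arrays and -0.65, 0.09 and -0.03 on NUDT16 arrays. SRSF7 lay nearest to this course, with a root mean square distance of 0.19, and SRSF2 farthest, at 0.78. Of 5692 other genes detected on all arrays, GALK2 (0.082), EZR (0.091) and C12orf45 (0.10, now NOPCHAP1) followed it most closely, by the same distance over 6 arrays. Among these other genes, 0.545% lay nearer to the course than SRSF7 did and 38.4% nearer than SRSF2 did. Since the course is a mean of members that differ, such closeness describes these arrays only.

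**Figure D4:**
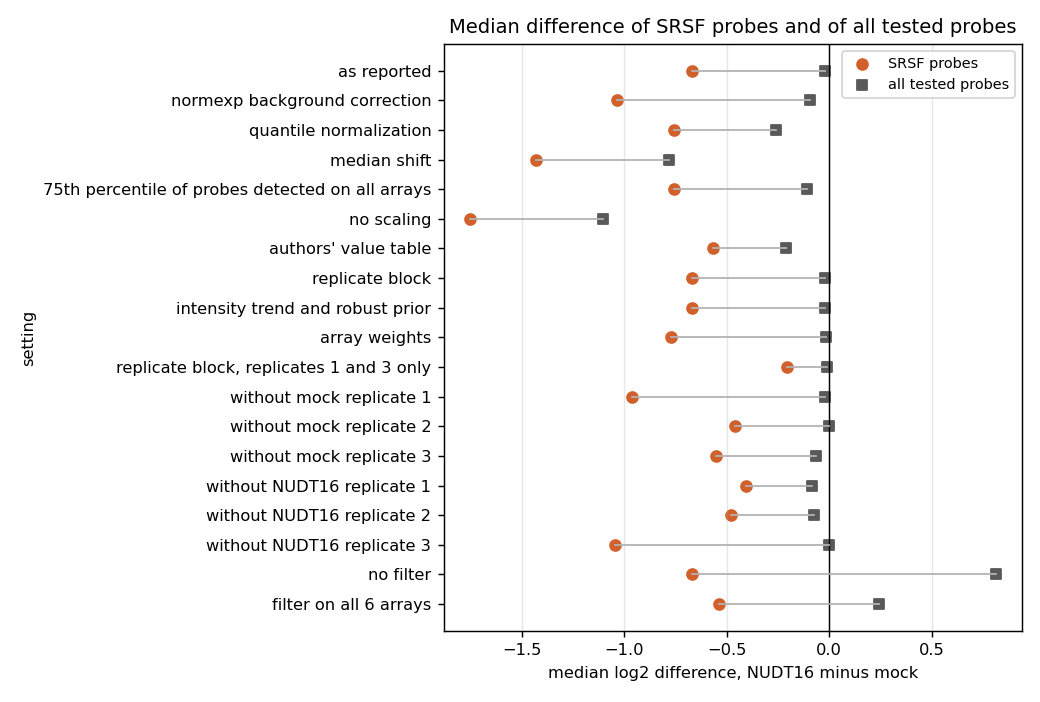
Median log2 difference, NUDT16 minus mock, over the SRSF probes (orange circles) and over all tested probes (grey squares) under each processing setting, with a grey line joining both. The SRSF median lies below that of all tested probes in every setting shown. The gap is smallest (0.20 in size) when replicates 1 and 3 alone are used. By construction, the gap is unchanged by a median shift, no scaling, the percentile over detected probes, another prior or the block over all arrays.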

How the data were processed

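The members and gene lists were chosen with earlier results of these data known; the upstream-to-downstream ratios were read after the values had been seen. Total RNA was extracted, cap-immunoprecipitated, reverse transcribed and labelled with Cy3, per the labels' protocols. The deposited scanner intensity had its background subtracted, its spatial trend removed and dim spots replaced by surrogates in Feature Extraction 10.7.3.1 on array design 039494 (hg19), per the file headers. The submitters' processing notes also name limma. The authors' deposited log2 table, whose making is not stated, ranked spots as median minus background intensity did (Spearman's rho 1 on each array) and was an alternative. Control and outlier spots were dropped, spots of a probe averaged, and log2 intensity shifted by each array's 75th percentile. Probes well above background on 3 of 3 arrays of a group entered limma 3.58.1 (R 4.3.3). The code was also run on simulated data with independent noise on each array. That simulation had no pairing of arrays and no array with few detected spots, so it does not test the fit under those conditions. The number of arrays limits precision.

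Same-numbered arrays deviated together from their groups, with correlations of 0.84, 0.39 and 0.77 (across 17765 probes, which are not independent), and each pair shares 1 slide and scan, so the numbers pair the arrays. All 10 genes and their 19 probes are named, with the gene of smallest p in each list and the 3 genes nearest in course. The transcripts of 19 of 19 probes matched the same symbol in RefSeq (GRCh38.p14, names only). Exon positions on hg19 are not given here. Other settings were normexp (offset 50), quantile, median or no scaling, the percentile over detected probes, the authors' table, the block, other priors and weights, other filters, gene means, and leaving out arrays. The pair medians under other scalings, the permutation of signs within pairs and the lists over genes detected on all arrays were added after seeing the data.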

Additional observations from a re-analysis of the deposited data

How the results depend on the processing

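Under every setting tried 0 SRSF probes were called. Settings that by construction leave a difference or ratio as it is are not counted here. Under settings that could move probes apart, 22 of 219 differences, of 8 of the 19 probes, reversed, and under those that shift all probes of an array alike 7 of 57 did. Of 81 ratios 18 reversed, in 6 of 9 ratios. The causes were not tested. The median over the SRSF probes was -1.43 with a median shift, -1.75 without scaling and -0.20 with the replicate block on replicates 1 and 3 only. It ranged from -1.04 (without NUDT16 replicate 3) to -0.41 (without NUDT16 replicate 1) when 1 array was left out, with 15 to 17 of 19 probes lower, and was -0.96 without mock replicate 1, -0.46 without mock replicate 2 and -0.48 without NUDT16 replicate 2. It stayed below that of all tested probes, whose median moved to -0.26 with quantile normalization, -0.78 with a median shift, -1.10 without scaling, -0.21 with the authors' table and 0.82 without the filter. Settings that shift all probes of an array alike cannot change the gap between these medians, nor can another prior or the replicate block over all arrays. Those settings could not have come out otherwise. Without scaling and with a median shift 98.7% and 93.9% of all tested probes were lower. Over all probes 0 were called with normexp, without scaling, with the authors' table, without the filter and with the filter on all 6 arrays (limma gave 11, 1, 10, 225 and 2 at an unadjusted p under 0.05), and 521 with the replicate block on replicates 1 and 3 only. In that last fit every probe had the same standard error, so its calls follow the size of the difference alone. The number called was 1 whichever array was left out. With the replicate block over all arrays the same probe, of NUDT16P1 (named after its value was seen), was called, and no SRSF probe.

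Reversed differences with normexp were -0.50 (SRSF2 upstream), -0.40 (SRSF6 downstream) and -0.59 (SRSF9). With a median shift these were -0.47, -0.57 and -0.73, and without scaling -0.79, -0.89 and -1.05, where all probes shifted alike. SRSF9 was -0.026 with quantile normalization and -0.051 with the percentile over detected probes. Array weights gave 0.15 and -0.085 for SRSF2 downstream and upstream. On replicates 1 and 3 with the replicate block these were 0.093 and -0.058, with 0.036 for SRSF3 downstream and -0.11 for SRSF6 downstream, and the mean of both SRSF6 probes was -0.45. With 1 array left out, SRSF10 A_32_P45493 ranged from -0.49 to 0.0045, SRSF2 downstream from -0.79 to 0.31 and upstream from -0.53 to 0.79, SRSF3 upstream from -0.77 to 0.44, SRSF7 downstream from -0.93 to 0.044 and SRSF9 from -0.32 to 0.36. Ratios of another probe over the brightest of its gene reversed for SRSF10 A_23_P352291 with quantile normalization (-0.81) and the authors' table (-0.84), for SRSF11 A_23_P11664 (0.30) and SRSF7 (0.88) with normexp, and for SRSF3 with normexp (0.078) and the authors' table (0.092). With 1 array left out they ranged from -0.33 to 0.56 (SRSF10 A_23_P352291), -0.41 to 0.16 (SRSF11 A_23_P11664), -0.033 to 0.093 (SRSF11 A_33_P3369550), -1.58 to 0.84 (SRSF2), -0.67 to 0.63 (SRSF3) and -0.60 to 0.52 (SRSF7). The ratios of SRSF6 and of SRSF10 A_32_P45493 kept their sign throughout, from -2.47 to -0.43 and from 0.31 to 1.38 with 1 array left out. Probes near background on NUDT16 replicate 2 limit what can be read of SRSF1 and of the dim probes of SRSF7 and SRSF10.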
